A study of Homo sapiens with 40 samples.

Results

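The respiratory chain subunit genes are the nuclear genes for the proteins of complexes I to V of the inner mitochondrial membrane. They were taken by gene symbol: NDUFA, NDUFB, NDUFC, NDUFS or NDUFV with a number for complex I, SDHA to SDHD for complex II, symbols beginning UQCR for complex III, COX4 to COX8 for complex IV, and ATP5 for complex V. Probe sets with exactly 1 symbol gave 87 probe sets for 80 of the 18417 genes tested: 33 in complex I, 3 in complex II, 8 in complex III, 17 in complex IV and 19 in complex V. The rule itself reads only symbols. It also took 5 genes that are not subunits: ATP5IF1, the inhibitor protein of complex V, COX7A2L, an assembly factor of supercomplexes, the pseudogenes ATP5F1EP2 and UQCRBP1, and ATP5MGL, a copy of ATP5MG. A further 6 members are isoforms of complex IV used mainly in particular tissues. SDHB, UQCRFS1, NDUFS5 and NDUFC2 were not analysed here.

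RNA was measured on 40 arrays of MDA-MB-231 cells, an established line from human triple-negative breast cancer, grown subconfluent in medium with serum, in 10 groups of 4 independent replicates. Zoledronate, a bisphosphonate, was given at 30 µM for 12 h and 24 h (lot I) and for 48 h (lot II), and at 100 µM for 24 h (lot II). Fluvastatin, a statin, was given at 2 µM for 12 h and 24 h (lot I). Each was set against mock-treated cells of its own lot and time, and at 12 h and 24 h in lot I zoledronate and fluvastatin share these control arrays. The 30 µM and 2 µM doses correspond, per the design text, to the IC50 of a 72 h treatment. VIM, CD44 and AXL, which mark this mesenchymal-like line, lay between percentiles 95.7 and 99.7 of all genes on each array. The hormone receptor genes ESR1 and PGR lay at or below percentile 25.6, and ERBB2, the third receptor gene of the triple-negative class, between 60.5 and 71.2. Of the markers of other cells, PTPRC, DCN and LUM lay at or below percentile 7.10 and CD3E and CDH5 at or below 25.8, while CD14, PDGFRB and PECAM1 reached 49.3, 43.6 and 53.5. In bulk RNA, fewer cells expressing a gene and less of its RNA per cell cannot be told apart.

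Complexes I to IV pass electrons from NADH and succinate to oxygen and, except complex II, pump protons, and complex V uses the proton gradient to make ATP. Both agents block the mevalonate pathway, zoledronate at farnesyl diphosphate synthase and fluvastatin at HMG-CoA reductase. The pathway also supplies the isoprenoid tail of coenzyme Q, the carrier between complexes I or II and complex III. All values below are log2 RMA signals, and a difference is treated minus control on that scale. "Rose" and "fell" are used where limma gave an adjusted p under 0.05.

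The respiratory chain genes moved little under any treatment. At 30 µM zoledronate 0 of 80 members passed at 12 h and 0 at 24 h, where limma called 0.0% of all genes. At each time 1 member had an unadjusted p under 0.05, against 511 (12 h) and 866 (24 h) of 18417 genes. At 48 h of 30 µM, 3 members fell and 0 rose, against 4.43% and 3.16% of all genes. At 100 µM zoledronate 18 members (22.5%) fell and 2 (2.5%) rose, against 16.6% of all genes that fell and 15.3% that rose. Fluvastatin gave 0 calls at 12 h, where 0.874% of all genes were called. There 0 members had an unadjusted p under 0.05, against 2552 of 18417 genes. At 24 h of fluvastatin 1 member rose and 1 fell, against 6.71% and 3.77% of all genes. An unadjusted p under 0.05 was reached by 11 of 80 members at 48 h, against 3984 of 18417 genes. At 100 µM it was reached by 26 members and 7153 genes, and at 24 h of fluvastatin by 15 members and 4506 genes.

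The median difference over the 80 members was 0.03 at 12 h and 0.02 at 24 h of 30 µM zoledronate, −0.07 at 48 h and −0.09 at 100 µM. With fluvastatin it was 0.00 at 12 h and 0.03 at 24 h. At 48 h 65 of 80 members (81.3%) lay below 0, against 47.1% of all genes, and at 100 µM 58 of 80 (72.5%) did, against 47.7%. A similar lean, upward, occurred at 12 h of 30 µM zoledronate, where 0 genes passed. There 62 of 80 members lay above 0, against 9893 of 18417 genes. At 24 h 47 of 80 lay above 0, and with fluvastatin 38 at 12 h and 50 at 24 h. Whether such leans exceed the spread between arrays was not tested. The 95% interval of the difference lay within 1.5-fold of no change for all 80 members at 100 µM, where 83.6% of all genes met that bound. The same held for 80 members at 24 h and 48 h of 30 µM zoledronate (98.3% and 94.8% of all genes) and at both fluvastatin times (96.3% and 93.1%). At 12 h of zoledronate it held for 79 (98.7% of all genes), the exception being ATP5MK, a small membrane subunit of complex V (0.31, upper limit 0.59). The limma SE had a median of 0.07 over the members and 0.09 over all genes, so these shares reflect precision as well as size.

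**Figure D1:**
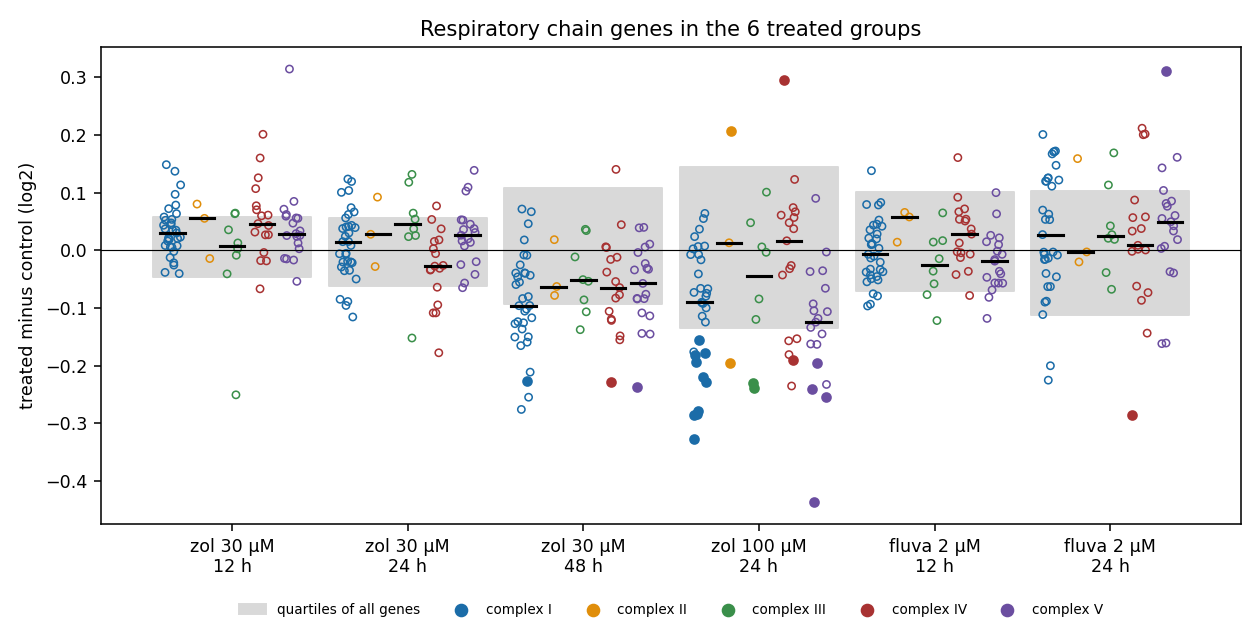
Difference between treated and control cells (log2) of each of the 80 members, in columns for the 6 treated groups and coloured by complex. Filled points passed the limma test, black bars are the medians of a complex, and grey boxes span the lower to the upper quartile of all genes. Most filled points belong to 100 µM zoledronate, where 18 fell and 2 rose.

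Complex I takes electrons from NADH. At 100 µM zoledronate 10 of its 33 members (30.3%) fell and 0 rose, against 16.6% and 15.3% of all genes. The median of complex I was −0.09, and 26 of 33 lay below 0, against 47.7% of all genes. At 12 h of 30 µM zoledronate, with 0 calls, 27 of 33 lay above 0. NDUFS6, a zinc-binding accessory subunit of the NADH-oxidising arm, had 9.31, 9.17, 9.26 and 9.03 in 100 µM cells, against 9.64, 9.46, 9.41 and 9.56 in controls. All 4 treated arrays lay below all 4 controls, and the difference was −0.33 ± 0.08 (SE, limma adjusted p = 0.00229, lower in 4 of 4 pairs). Its promoter is shown, in the 250 bases before the gene start, because it carries 1 match to the core motif of the transcription factor NRF1, an activator of respiratory genes. The capitals mark that match, 46 bases before the start (RefSeq, GRCh38.p14, chr5:1801157-1801406, plus strand).
NDUFS6: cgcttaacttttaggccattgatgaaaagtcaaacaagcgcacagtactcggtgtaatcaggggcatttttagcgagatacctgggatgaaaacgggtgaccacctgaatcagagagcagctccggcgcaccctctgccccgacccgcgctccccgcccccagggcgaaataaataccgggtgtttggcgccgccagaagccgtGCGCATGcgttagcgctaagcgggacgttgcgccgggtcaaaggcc
NDUFC1, a small subunit of the membrane arm, had 8.91, 9.05, 8.93 and 8.78 in 100 µM cells and 9.19, 9.20, 9.16 and 9.27 in controls. The groups did not overlap, and the difference was −0.29 ± 0.08 (limma adjusted p = 0.00461). NDUFA6, which binds the mitochondrial acyl carrier protein, had 8.71, 8.74, 8.74 and 8.61 in 100 µM cells against 8.88, 8.98, 8.93 and 9.16 in controls. Its arrays did not overlap either, at −0.28 ± 0.11 (adjusted p = 0.0407 with limma), but leaving out any 1 of the 4 replicates ended its call, with adjusted p up to 0.249.

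NDUFA11, a membrane arm subunit, had 8.68, 8.42, 8.52 and 8.40 in 100 µM cells and 8.94, 8.72, 8.74 and 8.72 in controls. Each of these treated arrays was lower than every control, by −0.28 ± 0.07 on average (limma adjusted p = 0.00472). NDUFA9, at the joint between the arms, fell by 0.22 ± 0.06, and NDUFV3, of the NADH-oxidising arm, fell by 0.23 ± 0.06 (limma adjusted p of 0.00550 and 0.00697). NDUFB9 and NDUFB10, of the membrane arm, fell by 0.18 and 0.19.

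The 6 measured core subunits, most of which (not NDUFS3) hold the flavin or iron-sulphur clusters, had a median of −0.05. Of these, NDUFV2 and NDUFS3 fell, by 0.18 and 0.16, and the limma adjusted p values of 0.0445 and 0.0473 were close to the threshold. NDUFV1, which binds NADH, had a difference of 0.01, and NDUFS1, NDUFS7 and NDUFS8 had −0.02, −0.08 and −0.01. Among the 12 NDUFA members 3 (25%) fell and among the 11 NDUFB members 2 (18.2%) fell, against 16.6% of all genes. NDUFS4, an accessory subunit, had the highest difference of complex I, 0.06, and did not pass. NDUFV2 had a further probe set, which gave −0.17 with an adjusted p of 0.0662 by limma.

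Complex II oxidises succinate and has no proton pump. SDHA, its flavoprotein, had 0.01 ± 0.09 at 100 µM, while the membrane anchors moved in opposite directions. SDHC had 10.41, 10.52, 10.39 and 10.31 in 100 µM cells and 10.21, 10.15, 10.13 and 10.31 in controls, so that the groups touched at replicate 4. It rose by 0.21 ± 0.06 (limma adjusted p = 0.0145, higher in 3 of 4 pairs). SDHD had 11.04, 11.08, 10.92 and 10.94 in 100 µM cells against 11.05, 11.20, 11.22 and 11.30 in controls, and fell by 0.20 ± 0.07 (limma adjusted p = 0.0305, 4 of 4 pairs). The dimmer probe set of SDHC gave the same 0.21 and that of SDHD gave −0.17, and neither passed (limma adjusted p of 0.125 and 0.222). Both genes have near-identical copies in the genome, and which copy a probe set reads was not tested.

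Complex III passes electrons from coenzyme Q to cytochrome c. Of its 8 members 2 fell at 100 µM (25%, against 16.6% of all genes), both small subunits of the membrane part. UQCR10 had 8.56, 8.42, 8.46 and 8.52 in 100 µM cells and 8.60, 8.82, 8.74 and 8.75 in controls. UQCRQ had 9.04, 9.08, 9.08 and 8.98 in 100 µM cells against 9.21, 9.26, 9.35 and 9.30 in controls. Neither pair of groups overlapped, and both genes fell by 0.24 and 0.23 (limma adjusted p of 0.0336 and 0.0204). The core proteins UQCRC1 and UQCRC2 had 0.05 ± 0.07 and 0.01 ± 0.05. UQCRB had 0.10 ± 0.12, the highest of the complex.

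Complex IV passes electrons to oxygen. Its 17 members had a median of 0.02 at 100 µM, with 1 fallen and 1 risen (5.88% each, against 16.6% and 15.3% of all genes). COX8A, its smallest nuclear-encoded subunit, had 9.60, 9.48, 9.30 and 9.43 in 100 µM cells against 9.65, 9.65, 9.54 and 9.73 in controls. The highest treated array reached into the control range, and COX8A fell by 0.19 ± 0.07 (limma adjusted p = 0.0330, 4 of 4 pairs). It is 1 of 2 members that also fell at 48 h, and its promoter is shown with 1 match to the ETS/GABP core motif, read on the other strand, in capitals (RefSeq, GRCh38.p14, chr11:63974370-63974619, plus strand).
COX8A: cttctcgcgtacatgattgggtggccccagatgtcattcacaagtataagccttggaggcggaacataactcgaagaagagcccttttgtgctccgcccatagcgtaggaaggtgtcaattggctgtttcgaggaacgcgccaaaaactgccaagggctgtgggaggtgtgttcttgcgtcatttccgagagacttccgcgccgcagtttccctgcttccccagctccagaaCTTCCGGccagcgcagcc
COX7A1, the heart and muscle isoform of subunit 7A, had 6.04, 5.91, 5.94 and 6.13 in 100 µM cells and 5.70, 5.58, 5.96 and 5.60 in controls. A single control array lay among the treated ones, and COX7A1 rose by 0.30 ± 0.10 (limma adjusted p = 0.0219, 3 of 4 pairs). COX7A2, the form used in most tissues, had 0.07 ± 0.07. COX4I1, COX5B and COX6A1, general subunits, had −0.04, 0.05 and 0.02, and COX4I2, an isoform of lung known to respond to low oxygen, had 0.06 ± 0.13. COX5A, at −0.15 ± 0.07, and COX7A2L, at −0.16 ± 0.07, did not pass (limma adjusted p of 0.0979 and 0.0709).

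At 100 µM 4 of the 19 members of complex V (21.1%) fell and 0 rose, against 16.6% and 15.3% of all genes. Complex V had 18 of 19 below 0, against 47.7% of all genes, with a median of −0.12. The difference that was largest among the 80 members was in its c-ring, the rotor in the membrane that turns as protons pass. It is encoded by ATP5MC1, ATP5MC2 and ATP5MC3, whose mature proteins are identical and which differ in the import sequence that is cleaved off. ATP5MC1 had 9.68, 9.50, 9.31 and 9.20 in 100 µM cells, against 9.95, 9.83, 9.81 and 9.84 in controls. No treated array reached the lowest control, and ATP5MC1 fell by 0.44 ± 0.07, a fold of 0.739 (limma adjusted p = 2.13e-05, 4 of 4 pairs).

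ATP5MC2 had 8.81, 8.85, 8.81 and 8.63 in 100 µM cells and 8.94, 8.88, 8.90 and 8.92 in controls, a difference of −0.13 ± 0.06. ATP5MC3 had 6.12, 6.15, 6.19 and 6.12 in 100 µM cells and 6.39, 6.29, 6.24 and 6.32 in controls, a difference of −0.16 ± 0.06. In both genes the groups did not overlap, yet neither passed (limma adjusted p of 0.0887 and 0.0521). Whether the change of ATP5MC1 differs from theirs was not tested. The promoters of ATP5MC1 and ATP5MC2 are shown as those of genes for the same mature protein. That of ATP5MC1 holds none of the 4 motifs searched in these bases (RefSeq, GRCh38.p14, chr17:48892537-48892786, plus strand), and that of ATP5MC2 has 1 NRF1 core match on the other strand, in capitals (chr12:53676084-53676333, minus strand).
ATP5MC1: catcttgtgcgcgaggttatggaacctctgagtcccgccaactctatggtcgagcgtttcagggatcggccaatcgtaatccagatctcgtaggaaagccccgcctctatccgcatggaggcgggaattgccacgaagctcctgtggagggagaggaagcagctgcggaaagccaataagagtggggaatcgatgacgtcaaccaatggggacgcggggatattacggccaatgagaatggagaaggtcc
ATP5MC2: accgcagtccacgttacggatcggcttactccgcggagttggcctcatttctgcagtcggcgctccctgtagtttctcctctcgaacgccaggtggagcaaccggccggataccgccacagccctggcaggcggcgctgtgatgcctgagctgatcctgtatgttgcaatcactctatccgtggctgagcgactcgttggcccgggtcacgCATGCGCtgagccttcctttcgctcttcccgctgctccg
Beside the c-ring, 2 further membrane subunits fell. ATP5MG had 11.16, 11.05, 11.14 and 11.17 in 100 µM cells against 11.41, 11.29, 11.31 and 11.29 in controls, a fall by 0.20 ± 0.07. ATP5MJ had 8.69, 8.74, 8.73 and 8.66 in 100 µM cells against 9.01, 8.95, 8.92 and 8.90 in controls, a fall by 0.24 ± 0.06. Their limma adjusted p values were 0.0259 and 0.00527, and neither gene's groups overlapped. ATP5MGL, the copy of ATP5MG, fell by 0.25 ± 0.08. Its low signal of 5.12 to 5.37 in 100 µM cells, against 5.41 to 5.59 in controls, did not overlap between the groups, and whether its probes also read ATP5MG was not tested.

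The catalytic head of complex V, with ATP5F1A and ATP5F1B among its 4 measured subunits, had 0 calls and differences between −0.11 and −0.04. ATP5F1B had 12.65, 12.71, 12.70 and 12.72 in 100 µM cells and 12.75, 12.81, 12.84 and 12.75 in controls. These groups did not overlap, but the difference of −0.09 ± 0.05 did not pass (limma adjusted p = 0.165). The 4 stalk subunits also had 0 calls, with ATP5PB at −0.16 and ATP5PD at 0.00, where 32.0% of all genes were called. Among the 8 membrane subunits 3 fell (37.5%, against 16.6% of all genes), and ATP5ME had the highest difference, 0.09.

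**Figure D2:**
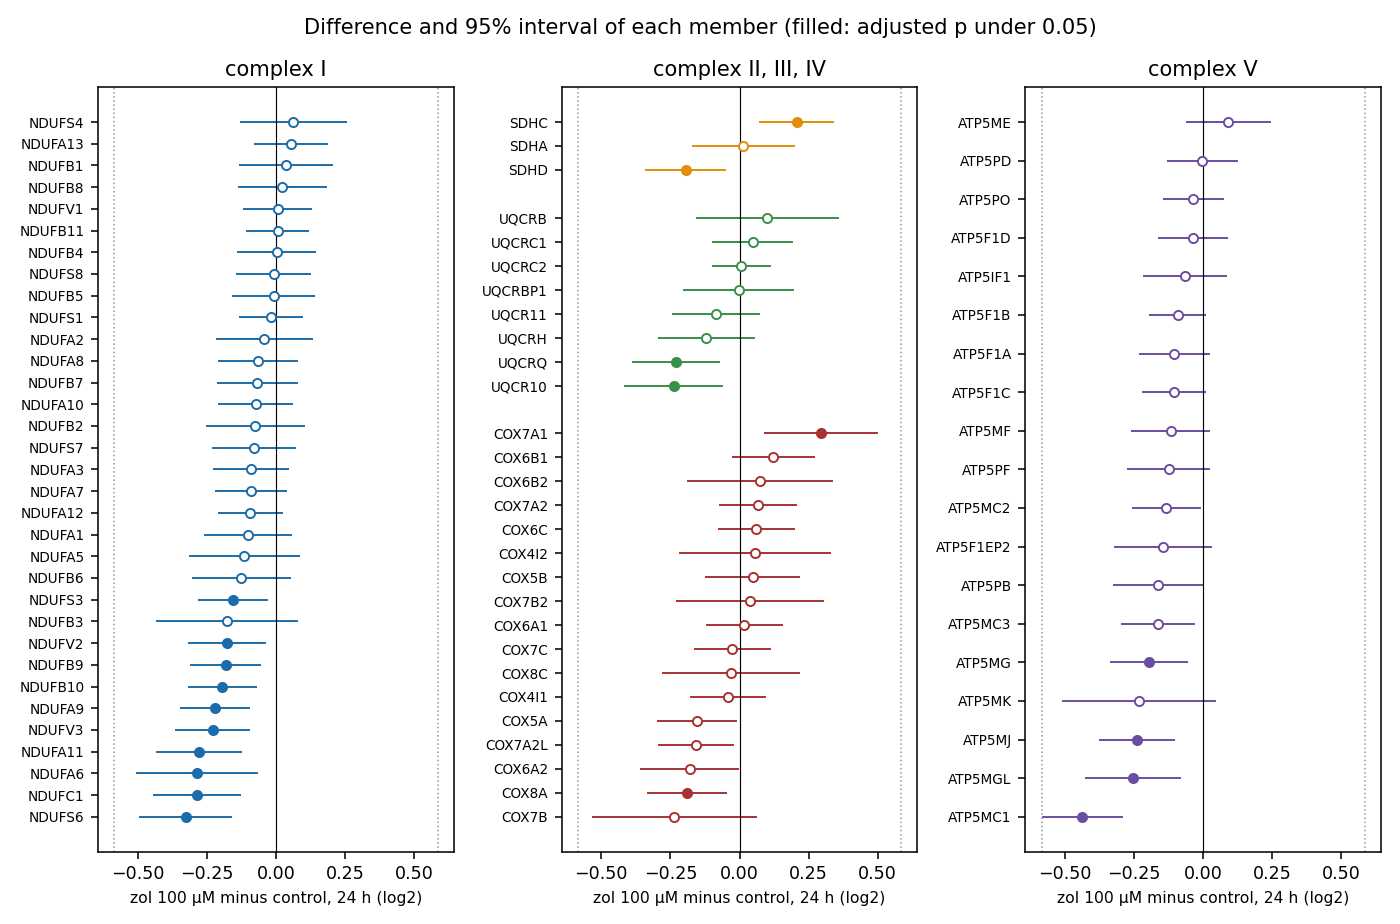
Difference (log2) of each member between 100 µM zoledronate and control cells at 24 h, with its 95% interval, by complex. Filled points passed the limma test and dotted lines mark 1.5-fold. ATP5MC1 is lowest at −0.44 and COX7A1 highest at 0.30, and every interval lies inside the dotted lines.

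Of the 80 members 20 had all 4 treated arrays at 100 µM below all 4 controls and 0 had them above, against 17.4% and 15.6% of all genes. The calls at 100 µM rest on small differences. Of the 20, 3 (ATP5MC1, NDUFS6 and NDUFA11) passed under each of the 12 alternative settings applied to single genes. Without the replicate block, 5 of the 20 passed: those 3, NDUFV3 and COX7A1. When 1 replicate was left out, between 9 and 13 members passed.

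At 48 h of 30 µM zoledronate NDUFA9, COX8A and ATP5PF fell. NDUFA9 had 9.15, 8.89, 8.94 and 9.15 in treated cells and 9.31, 9.32, 9.10 and 9.30 in controls, a fall by 0.23 ± 0.06 (limma adjusted p = 0.0202). COX8A had 9.50, 9.18, 9.52 and 9.46 in treated cells and 9.59, 9.72, 9.64 and 9.61 in controls, a fall by 0.23 ± 0.07 (limma adjusted p = 0.0405). ATP5PF, a subunit of the outer stalk of complex V, had 8.19, 8.25, 8.15 and 8.24 in treated cells and 8.59, 8.57, 8.30 and 8.32 in controls. It fell by 0.24 ± 0.07 (limma adjusted p = 0.0412), and its groups, like those of COX8A, did not overlap. Each was lower in 4 of 4 pairs. In all, 3 members had treated arrays wholly below the controls and 0 wholly above, against 4.35% and 3.93% of all genes. These were COX8A, ATP5PF and NDUFB11, while the arrays of NDUFA9 overlapped. NDUFB11 had −0.16 ± 0.05 and did not pass (limma adjusted p = 0.0682).

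Replicate 2 stood apart at 48 h. Its median difference over the members was −0.20, against −0.08, −0.05 and 0.02 in the other pairs. NDUFA6 had 8.19 in the treated array of that replicate, against 8.68 to 8.99 in the other treated arrays, and SDHA had 9.98 there against 10.55 to 10.72. None of the 3 falls passed without replicate 2 or without replicate 1, and only that of NDUFA9 remained without replicate 3. None of them passed without the replicate block. Of the 18 members that fell at 100 µM, 17 lay below 0 at 48 h, with a median of −0.10. Most members did so whether or not they fell at 100 µM: 65 of all 80, with a median of −0.07. Both sets of arrays have their own controls. NDUFA9 and COX8A fell in both, which is 2 of the 18 and 2 of the 3. The share of all genes that fell in both was not counted, so this overlap cannot be judged against it.

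With fluvastatin at 24 h COX6A2, the heart and muscle isoform of subunit 6A, had 6.88, 7.08, 6.72 and 7.13 in treated cells and 7.40, 7.02, 7.31 and 7.24 in controls. The arrays overlapped, and COX6A2 fell by 0.29 ± 0.08 (limma adjusted p = 0.0303, 3 of 4 pairs). ATP5MGL had 5.28, 5.91, 5.64 and 5.76 in fluvastatin cells against 5.36, 5.45, 5.26 and 5.29 in controls, and rose by 0.31 ± 0.08 (limma adjusted p = 0.0166, 3 of 4 pairs). Neither passed without replicate 3 or without the replicate block. ATP5MC1 had 10.16, 9.98, 10.04 and 9.62 in fluvastatin cells and 10.36, 10.13, 10.18 and 9.77 in controls. Its difference of −0.16 ± 0.07 was lower in 4 of 4 pairs but did not pass (limma adjusted p = 0.141). With 30 µM zoledronate at 24 h ATP5MC1 had 10.48, 10.13, 10.19 and 9.79, against the same control arrays. At 48 h of 30 µM it had −0.14 ± 0.07 and did not pass. NDUFA11 had −0.23 ± 0.07 with fluvastatin at 24 h, lower in 4 of 4 pairs, and did not pass (limma adjusted p = 0.0519).

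**Figure D3:**
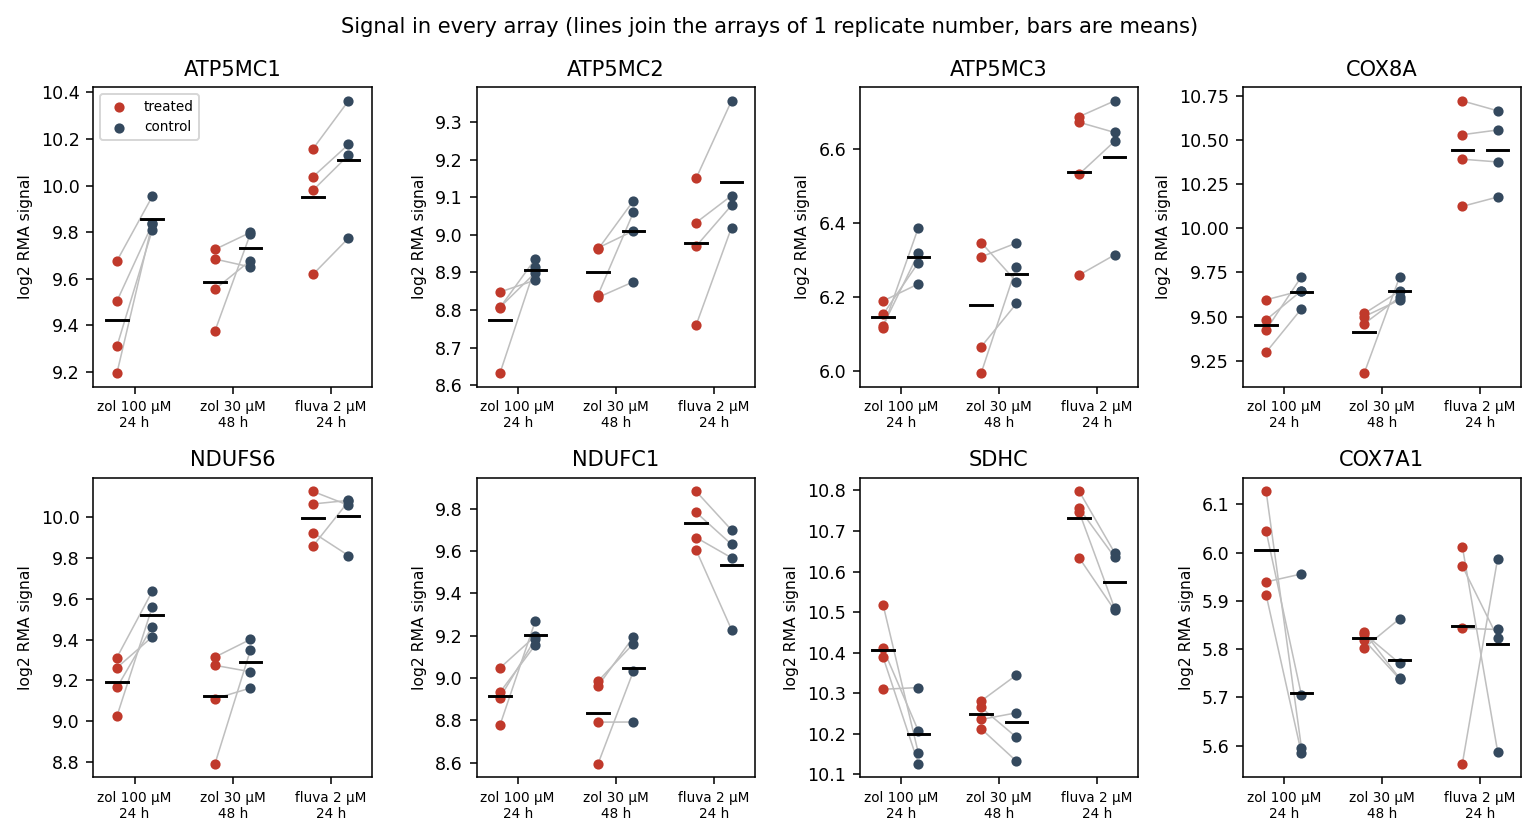
Signal (log2 RMA) in every array for 8 members, with treated cells left of their controls in 3 comparisons, lines joining the arrays of a replicate number and bars for means. ATP5MC1 and NDUFS6 are lower in all 4 arrays of 100 µM zoledronate than in all 4 controls, and the control level of COX8A differs between the lots.

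The difference between treatments was tested directly. The effect of 100 µM zoledronate minus that of fluvastatin at 24 h passed for 2 members, where 4.16% of all genes were lower and 1.62% higher. These were ATP5MGL (−0.56 ± 0.12, limma adjusted p = 0.00499) and NDUFC1 (−0.49 ± 0.11, limma adjusted p = 0.00808). NDUFC1 had 9.60, 9.78, 9.88 and 9.66 in fluvastatin cells and 9.23, 9.63, 9.70 and 9.57 in their controls. Neither difference passed without the replicate block or without replicate 3, and that of ATP5MGL not without replicate 2 nor that of NDUFC1 without replicate 4.

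Set against 30 µM at the same time, the effect of 100 µM zoledronate was lower in 5 members and higher in 0, against 11.1% and 9.20% of all genes. ATP5MC1 differed by −0.47 ± 0.10 (limma adjusted p = 0.00105). NDUFA9, NDUFV3, NDUFC1 and ATP5MGL differed by −0.28, −0.25, −0.33 and −0.36, with limma adjusted p between 0.0214 and 0.0497. That of ATP5MC1 passed with each replicate left out, and none of the 5 passed without the replicate block. Dose and lot cannot be told apart in these comparisons. The 100 µM effect at 24 h minus the 30 µM effect at 48 h, both in lot II, passed for 0 members. Of all genes 8.23% passed, and 3866 of 18417 had an unadjusted p under 0.05, as did 5 of 80 members. There ATP5MC1 had −0.29 ± 0.10 (limma adjusted p = 0.0639).

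By limma, the contrasts of 30 µM zoledronate with fluvastatin passed for 0 members at 12 h and at 24 h. Of all genes 0.738% and 7.23% were called. A limma unadjusted p under 0.05 was reached by 6 and 8 of 80 members, against 2363 and 3697 of 18417 genes. The difference that came nearest was that of ATP5MC1 at 24 h, 0.20 higher with zoledronate, with a 95% interval from 0.06 to 0.34 (limma adjusted p = 0.0856). Between 48 h and 24 h of 30 µM zoledronate limma called 0 members and 0.407% of all genes. There 5 of 80 members had an unadjusted p under 0.05, against 2842 of 18417 genes. Between 24 h and 12 h of fluvastatin limma also called 0 members, and 0.0% of all genes. Here 3 of 80 members had an unadjusted p under 0.05, against 2014 of 18417 genes.

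The members' levels also differed between the lots. Among untreated cells at 24 h, lot II minus lot I had a median of −0.24 over the members, from −0.80 (COX8A) to 0.51 (NDUFA5), with 64 of 80 lower in lot II, and a median of −0.02 over all genes. Levels are therefore compared only within a lot. The SD within a group had a median of 0.14 log2 over the members, as over all genes (0.14). The limma SE of a treated minus control difference had a median of 0.07 over the members and 0.09 over all genes.

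Genes that build or serve the chain, but lie outside the symbol rule, were counted in the same fit. With the 8 arrays of a comparison fitted alone, limma called 0 genes in the whole table at 48 h of 30 µM and 2 with fluvastatin at 24 h, so list calls there rest on the spread shared over all 40 arrays. CYCS, cytochrome c itself, had 9.07, 8.76, 8.82 and 8.76 in 100 µM cells and 9.73, 9.48, 9.44 and 9.24 in controls. These arrays did not overlap, and CYCS fell by 0.62 ± 0.08 (limma adjusted p = 1.37e-06). CYC1, the cytochrome of complex III, fell by 0.27 ± 0.06, and NDUFAB1, the acyl carrier protein of complex I, fell by 0.35 ± 0.10. That makes 3 of the 3 measured genes of that list, against 16.6% of all genes.

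Assembly factors help to put the complexes together. For complex I 10 of 14 fell at 100 µM (median −0.30) and 0 rose, where 16.6% of all genes fell and 15.3% rose. NDUFAF4 had 8.89, 8.85, 8.87 and 8.92 in 100 µM cells and 9.88, 9.80, 9.77 and 9.75 in controls, a fall by 0.92 ± 0.08 with no overlap (limma adjusted p = 1.18e-08). For complex IV 9 of 21 fell (median −0.14), among them COA7 by 0.71 ± 0.08, SCO1, which delivers copper, by 0.55 ± 0.07, and COA1 by 0.42 ± 0.06. For complexes II and III 3 of 9 fell, with UQCC3 at −0.58 ± 0.10, and for complex V 2 of 5 fell, TMEM70 by 0.39 and ATPAF1 by 0.26. None of the assembly factors rose. Without the replicate block 6 of 14 fell for complex I and 1 of 9 for complexes II and III.

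The mitochondrial ribosome makes the subunits encoded in mitochondrial DNA. Of its 73 measured proteins 43 fell at 100 µM and 0 rose, against 16.6% and 15.3% of all genes, with a median of −0.26. MRPL57, MRPL20 and MRPL3 fell by 0.56, 0.53 and 0.58. At 48 h of 30 µM 13 of 73 fell (median −0.15), against 4.43% of all genes, MRPL46 and MRPS9 with −0.37 and −0.38. With fluvastatin at 24 h 8 of 73 fell (median −0.07), against 3.77% of all genes, among them MRPS12 with −0.37. Without the replicate block 38 fell at 100 µM, 0 at 48 h and 0 with fluvastatin, and with a replicate left out 5 to 21 fell at 48 h and 0 to 7 with fluvastatin. At 30 µM zoledronate 0 of them passed at 12 h and 0 at 24 h.

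Among genes for the upkeep and reading of mitochondrial DNA 7 of 13 fell at 100 µM and 0 rose. Of all genes 16.6% fell and 15.3% rose there, and 4.43% fell at 48 h. TFAM, which packs and transcribes that DNA, had 10.27, 10.06, 10.22 and 10.11 in 100 µM cells and 10.82, 10.84, 10.88 and 10.76 in controls. It fell by 0.66 ± 0.07 with no overlap, and by 0.32 ± 0.07 at 48 h (limma adjusted p of 2.39e-07 and 0.00935). TFB2M, a transcription factor of mitochondrial DNA, fell by 0.54 at 100 µM and by 0.34 at 48 h. Without the replicate block 4 of 13 fell at 100 µM and 0 at 48 h, and without replicate 1 neither TFAM nor TFB2M passed at 48 h.

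Nuclear regulators of respiratory genes moved both ways at 100 µM, with 6 of 12 fallen and 3 risen, against 16.6% and 15.3% of all genes. MYC, a growth regulator, had 8.95, 9.01, 8.91 and 8.81 in 100 µM cells and 10.53, 10.62, 10.56 and 10.58 in controls, a fall by 1.65 ± 0.10. PPRC1, PPARGC1B, GABPB1 and NRF1, activators of mitochondrial genes, fell by 1.05, 0.62, 0.70 and 0.38. PPARGC1A, a coactivator of the same family, rose by 0.54 ± 0.13, and the hypoxia factors EPAS1 and HIF1A rose by 1.51 and 0.41. With fluvastatin at 24 h 3 rose and 4 fell, against 6.71% and 3.77% of all genes, with MYC at −0.66 and EPAS1 at 1.05. With a replicate left out 2 to 3 rose and 1 to 3 fell, the fewest without replicate 1. At 48 h 3 fell, against 4.43% of all genes: MYC by 0.59, GABPB1 by 0.52 and NRF1 by 0.25. Of these, NRF1 did not pass without the block or without replicate 1 or 3.

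Of the 13 genes of coenzyme Q synthesis 5 rose (38.5%) and 3 fell (23.1%) at 100 µM, against 15.3% and 16.6% of all genes. COQ8B rose by 0.49 ± 0.07 and COQ5, a methylating enzyme, rose by 0.44 ± 0.10, while PDSS1, which makes the isoprenoid tail, fell by 0.65 ± 0.09. With a replicate left out 3 to 5 rose and 2 to 3 fell. At 48 h 4 of the 13 fell and 0 rose, against 4.43% and 3.16% of all genes, PDSS1 with −0.30 and COQ2 with −0.29. With fluvastatin at 24 h COQ10B rose by 0.31 and COQ8A fell by 0.28, where 6.71% of all genes rose and 3.77% fell. Without the block 1 of 13 fell at 48 h, and with a replicate left out 1 to 4 did. There PDSS1 did not pass without replicate 1, 2 or 3, and COQ2 did not without replicate 2. With fluvastatin COQ10B did not pass without the block or without replicate 1 or 4, nor COQ8A without replicate 4.

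Of 23 genes of the TCA cycle and pyruvate entry 6 rose (26.1%) and 2 fell (8.70%) at 100 µM, against 15.3% and 16.6% of all genes. The risen genes included all 4 pyruvate dehydrogenase kinases, which switch pyruvate entry off and so do not do what the list is named for. PDK1 had 9.93, 10.34, 10.31 and 10.24 in 100 µM cells and 8.64, 8.80, 9.14 and 9.10 in controls, a rise by 1.28 ± 0.09, and PDK4 rose by 1.40 ± 0.14. Of the cycle itself OGDH rose by 0.46 and IDH3A fell by 0.40. With fluvastatin PDK4 rose by 0.70 at 12 h and 2.29-fold at 24 h, and PDK1 rose by 0.38 at 24 h. The 12 h call of PDK4 was lost without the block and without replicate 1, 2 or 3, and that of PDK1 without the block and without replicate 1.

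**Figure D4:**
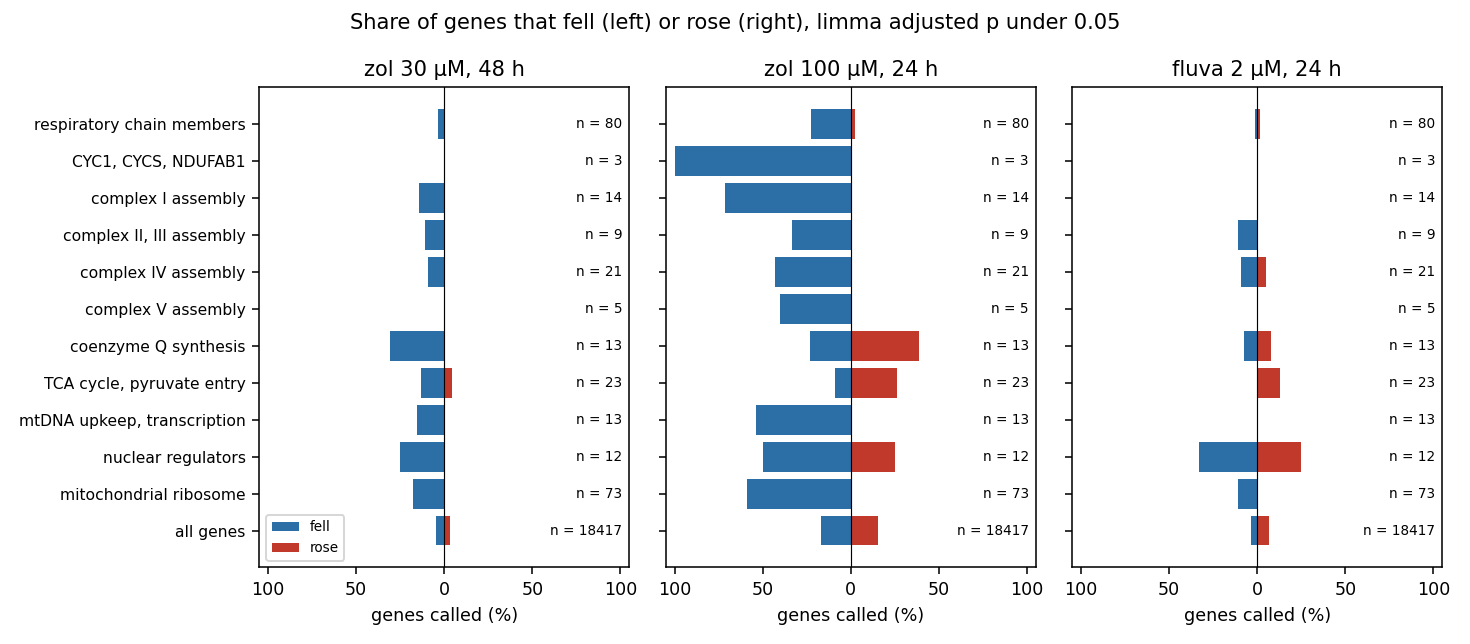
Share of genes (%) that fell (bars to the left) or rose (bars to the right) in 3 comparisons, for the 80 members, the 10 lists of related genes and all genes, with the number measured in each. At 100 µM zoledronate 22.5% of the members fell, against 43 of 73 mitochondrial ribosomal proteins and 16.6% of all genes.

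Promoter motifs were searched as described for 66 of the 80 members, those with a RefSeq window around the gene start (250 bases before to 50 after it, GRCh38.p14), on both strands. The letters were GCGCATG for NRF1, CCGGAAG for ETS/GABP, CACGTG for the E-box that MYC binds and AAGATGG for YY1, and none of these contains another. The NRF1 core was present in 19.7% of the members, against 5.82% of the 14237 genes tested with a window and 4.43% of all 35116 promoters. The ETS/GABP core was present in 28.8%, against 14.6% and 10.3%, and YY1 letters in 22.7%, against 6.51% and 5.84%. The E-box was present in 10.6%, against 8.88% and 7.26%. Among the 16 members with a window that fell at 100 µM the NRF1 core was present in 18.8%, and among the other 50 in 10 of 50. The ETS/GABP core was present in 31.3% of the fallen and in 14 of the other 50, the E-box in 12.5% and in 5 of 50, and the YY1 letters in 18.8% and in 12 of 50.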

How the data were processed

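Total RNA of 40 cultures was hybridised to Affymetrix Human Gene arrays. The authors deposited log2 values from RMA (Affymetrix Power Tools 1.10.2) and tested with limma, per the submitters' processing notes. Neither the genome build nor a joint normalization of the lots is given in the sources used here. All 40 columns were mapped to samples, and precision is limited by how many arrays there are.

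Of 33297 probe sets, 19460 had 1 symbol in the platform annotation. A gene was represented by its brightest probe set over all arrays, which left 18417 genes, with no filter on dim ones. The fit (limma 3.58.1, R 4.3.3, lmFit and eBayes) had 16 blocks of lot, time and replicate number and 6 treated effects, with 18 residual degrees of freedom. P values were two-sided and adjusted by Benjamini-Hochberg over all genes, with a threshold of 0.05. The design text states the pairing by day. Across genes, the deviations of a treated and a control array with 1 number correlated at 0.17 to 0.60 in lot I, −0.30 to 0.55 at 48 h and −0.09 to 0.26 at 100 µM. On simulated data the fit recovered 75 of 100 changes of 0.5 and 99 of 100 changes of 1 on the log2 scale. It also called 8 unchanged genes. Both sizes exceed the largest difference of a member from its control, 0.44, and recovery of smaller changes was not tested.

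Members, lists and named genes were chosen with earlier results of these data known. Genes were named by fixed members of each complex, the largest changes per complex in 4 of 4 pairs, members against their complex's direction, and the smallest p values of each list. NDUFB9, NDUFB10, NDUFB11, NDUFV2, NDUFS3, the fluvastatin value of NDUFA11 and SDHD's other probe set were named outside this rule, once their values were seen. Alternatives were a fit without the block or with a random one, a fit to the compared arrays alone, another quantile normalization, median centring, a filter on dim genes that left 12278, averaging the probe sets of a gene, every probe set, an intensity trend, and each replicate left out.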

Additional observations from a re-analysis of the deposited data

Results flagged for a closer look

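Among the 43 groups of 4 pair differences examined, 3 had a pair far from the others, and chance gives about 1 in 20. The ratio of gap to range was 0.958 for NDUFA9 at 48 h of 30 µM zoledronate, where replicate 2 had −0.42 and the others −0.17 to −0.15. It was 0.876 for COX8A at 48 h, where the same replicate had −0.54 and the others −0.15 to −0.09. It was 0.839 for the median of complex III at 100 µM zoledronate, where replicate 4 had −0.18 and the others −0.05 to −0.03. Neither gene passed at 48 h without replicate 2, nor without replicate 1.

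In 7 cases a member's change differed between treatments by limma's test of the difference (adjusted p between 0.00105 and 0.0497). The effect of 100 µM zoledronate minus that of fluvastatin at 24 h was −0.564 for ATP5MGL and −0.487 for NDUFC1. The effect of 100 µM zoledronate minus that of 30 µM at 24 h was −0.473 for ATP5MC1, −0.275 for NDUFA9, −0.253 for NDUFV3, −0.357 for ATP5MGL and −0.326 for NDUFC1. Each of these compares arrays of lot II with arrays of lot I, so treatment and lot cannot be told apart.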

How the results depend on the processing

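The median difference of the members at 100 µM stayed between −0.13 and −0.06 in all alternatives run, and at 48 h between −0.10 and −0.04. The 20 calls at 100 µM became 5 without the replicate block, 12 with only the arrays compared and 9 to 13 with a replicate left out. Median centring gave 1 risen and 26 fallen, and another quantile normalization 4 and 14. The 3 calls at 48 h became 0 without the block, 0 with a random block, 0 with only the arrays compared, 5 with centring, 5 without dim genes and 0 to 5 with a replicate left out. For fluvastatin at 24 h the 2 calls became 0 without the block, 0 with only the arrays compared, 7 with quantile normalization, 5 with centring, 6 without dim genes, 6 with an intensity trend and 0 to 1 with a replicate left out. For 30 µM zoledronate against fluvastatin at 24 h, 0 became 1 with centring, without dim genes and with a trend. For 100 µM minus fluvastatin, 2 became 0 without the block, 1 with only the arrays compared, 1 without dim genes and 0 to 2 with a replicate left out. For 100 µM minus 30 µM at 24 h, 5 became 0 without the block, 1 with a random block, 3 with quantile normalization, 11 with centring, 8 without dim genes, 8 with a trend and 1 to 3 with a replicate left out. For 100 µM minus 30 µM at 48 h, 0 became 1 with centring, without dim genes and with a trend, and 0 to 3 with a replicate left out. The causes were not tested, beyond fewer samples in the last setting. The counts of the gene lists under these alternatives were added after seeing the data; with a replicate left out 37 to 41 mitochondrial ribosomal proteins fell at 100 µM. No detection call goes with these values, so which dim members lie at background was not tested.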
